A study of Mus musculus with 23 samples.

Results

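The miR-183 cluster is a set of 3 microRNA genes, those of miR-183, miR-96 and miR-182, that lie close together in the mouse genome and give the mature microRNAs miR-183-5p, miR-96-5p and miR-182-5p. The 3 members were taken by identifier (MIMAT0000212, MIMAT0000541 and MIMAT0000211, in that order) from the 602 microRNA rows of an nCounter panel, an assay that counts probe barcodes without amplification. All 3 were present, and all 3 were among the 302 microRNAs tested, those above background in at least 2 samples. Total RNA came from cells sorted from lungs of wild-type C57BL6 mice at 6 stages, 2 of them before birth (embryonic days 16.5 and 18.5, written E16.5 and E18.5) and 4 after it (days 1, 7, 14 and 28, written P1 to P28). The 13 samples of type II pneumocytes (AT2, the surfactant-producing cells of the alveolus, sorted on CD326) were 2 per stage and 3 at P28. CD326 is a surface protein of epithelial cells in general, and the AT2 label is given to embryonic samples as well. The 10 samples of endothelial cells (EC, the lining of blood vessels, sorted on CD31) were 2 per stage and 1 each at E18.5 and P1. No group carried a mutation or a treatment, and nothing in the labels states that replicates were separate animals. The p-values below therefore rest on a spread between samples that could be technical.

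A microRNA guides a silencing complex to messenger RNAs mainly through its seed, bases 2 to 8, which pair with matching sites in the target. The 3 genes of the cluster are transcribed together and are conserved among animals with bilateral symmetry. The cluster is best known from sensory cells, such as the hair cells of the inner ear and the photoreceptors of the retina, and changes in the seed of miR-96 cause hearing loss in mice and humans. It is also known from epithelial tissues, and AT2 cells are epithelial whereas endothelial cells are not.

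The mature sequences from RefSeq (build GRCm38.p6) are shown because the members share much of their sequence and because the seeds set which of them have targets in common. Each is written 5′ to 3′ with the seed in capitals.
miR-183-5p: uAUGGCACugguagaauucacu
miR-96-5p: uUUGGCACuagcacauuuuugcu
miR-182-5p: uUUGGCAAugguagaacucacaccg

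No seed of 7 bases was shared between members. The seeds of miR-96-5p and miR-182-5p share their first 6 bases and part at the last, and the seeds of miR-96-5p and miR-183-5p part at their first base. All 3 hold the 5 bases UGGCA. Over the whole length, miR-182-5p and miR-183-5p were the closest pair, with the same base at 18 of 22 positions counted from the 5′ end and a shared run of 8 bases from position 9. The same base stood at 13 of 22 positions in miR-96-5p and miR-183-5p, and at 12 of 23 in miR-182-5p and miR-96-5p. The cross-reaction of the panel's probes between these relatives was not tested. Of 1679 mature mouse microRNA names in the reference, 1 other, miR-1271-5p from chromosome 13 (chr13:54578152-54578173, plus strand), had the seed of miR-96-5p, and none had the seed of miR-183-5p or miR-182-5p.
miR-1271-5p: cUUGGCACcugguaagcacuca

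The 3 hairpins lie on the minus strand of chromosome 6 (GRCm38.p6), in the order of transcription Mir183 (chr6:30169668-30169737), Mir96 (chr6:30169446-30169551) and Mir182 (chr6:30165918-30165992). Mir96 begins 116 bases after Mir183 ends, and Mir182 begins 3453 bases after Mir96. All 3 lie within the annotated long non-coding host gene Mirc35hg (chr6:30158640-30174125), which spans 15486 bases. The start of the host gene, chr6:30174076-30174375 on the minus strand, is shown because the members are read from 1 annotated transcript. It covers 250 bases before and 50 after the start, with the letters CACCTG in capitals, an E-box form that the epithelial repressors of the ZEB family are known to bind.
Mirc35hg promoter: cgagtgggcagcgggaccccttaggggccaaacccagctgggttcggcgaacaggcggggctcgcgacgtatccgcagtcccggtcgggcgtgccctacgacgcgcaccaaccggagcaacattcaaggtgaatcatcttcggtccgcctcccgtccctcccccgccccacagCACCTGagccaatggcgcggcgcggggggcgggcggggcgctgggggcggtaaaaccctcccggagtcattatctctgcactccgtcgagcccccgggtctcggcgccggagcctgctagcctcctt

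This window was 70.3% G and C, against a median of 52.7% over the 32851 promoters of the reference, and it held 35 CG pairs, against a median of 7. Each motif was searched for on both strands. CACCTG was found once, 76 bases before the start, and 20.2% of all promoters held it. The wider E-box CANNTG was found 2 times, 1 of them the same CACCTG, and 72.3% of promoters held it. The CCAAT box was found once and GGGCGG 4 times, with 37.4% and 35.7% of promoters holding them. TATAAA was not found, and 13.6% of promoters held it. These matches describe letters in the window and do not show binding.

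The deposited values are a signal, the counts of each sample times 1 factor. MicroRNA counts per sample ranged from 26640 (AT2 P28 replicate 1) to 571724 (EC P1 replicate 1), and the factors from 0.296 to 7.93. A background limit was set in each sample at the mean plus 2 SD of the 8 low control rows. The factor multiplies the background too: the limit on the signal scale reached 95.1 in EC E18.5 replicate 1, and microRNAs that were above background in no sample still had a median AT2 minus EC difference of -1.08 on the log2 scale. In AT2 P28 replicate 1 all 8 low controls stood at 1 count, so its limit is 1 count. An earlier look at the whole panel had set apart 3 of the EC samples (P1 replicate 1, P14 replicate 2, P28 replicate 2), and several results that rest on them are given with and without them. The tests within shared title IDs and the ratio between the cell types are given only with them. The panel rows have identifiers without names in the files used here, so the cell type labels were not checked against named marker microRNAs.

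miR-183-5p and miR-96-5p were read clearly in AT2 cells at every stage and were low in most EC samples, while miR-182-5p was low in AT2 cells and not above background in any EC sample. Over the 6 stages, miR-183-5p was higher in AT2 cells than in EC by 2.36 ± 0.28 and miR-96-5p by 2.35 ± 0.26 on the log2(signal + 1) scale (SE). miR-182-5p was higher in AT2 cells by 1.27 ± 0.28. In bulk samples, fewer cells with a microRNA and less of it per cell cannot be told apart.

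The signal of miR-183-5p, the first hairpin of the transcript, in AT2 cells was 472 and 295 at E16.5. It was 285 and 302 at E18.5, 243 and 231 at P1, 183 and 166 at P7, 238 and 165 at P14, and 178, 167 and 105 at P28. In EC it was 39.7 and 8.33 at E16.5, then 63.4 at E18.5 in the 1 sample there, 64.6 at P1, 12.7 and 38.3 at P7, 45.3 and 150 at P14, and 34.7 and 56.5 at P28. The cell types overlapped in 1 sample, since EC P14 replicate 2 lay above the lowest AT2 sample. It passed its sample's limit in 13 of 13 AT2 samples and in 4 of 10 EC samples.

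The signal of miR-96-5p, the member known for its role in hair cells, was 950 and 709 in AT2 cells at E16.5. It was 441 and 501 at E18.5, 584 and 374 at P1, 519 and 458 at P7, 484 and 489 at P14, and 1078, 739 and 237 at P28. In EC it was 67.2 and 25.0 at E16.5, then 111 at E18.5 in the 1 sample there, 139 at P1, 49.7 and 83.5 at P7, 128 and 327 at P14, and 143 and 178 at P28. Again only EC P14 replicate 2 lay above the lowest AT2 sample. It passed its sample's limit in 13 of 13 AT2 samples and in 9 of 10 EC samples.

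The signal of miR-182-5p, the member farthest from the start of the transcript, was 119 and 80.2 in AT2 cells at E16.5. It was 51.1 and 42.1 at E18.5, 19.7 and 10.3 at P1, 34.3 and 18.0 at P7, 32.9 and 27.0 at P14, and 14.9, 38.3 and 7.16 at P28. In EC it was 6.11 and 22.2 at E16.5, then 23.8 at E18.5 in the 1 sample there, 10.2 at P1, 5.78 and 6.09 at P7, 16.5 and 12.9 at P14, and 11.6 and 12.3 at P28. The cell types overlapped, and the highest AT2 samples were the embryonic ones. It passed the limit in 11 of 13 AT2 samples and in 0 of 10 EC samples. Its count in AT2 P28 replicate 1 was 2, above that sample's limit of 1 count.

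**Figure D1:**
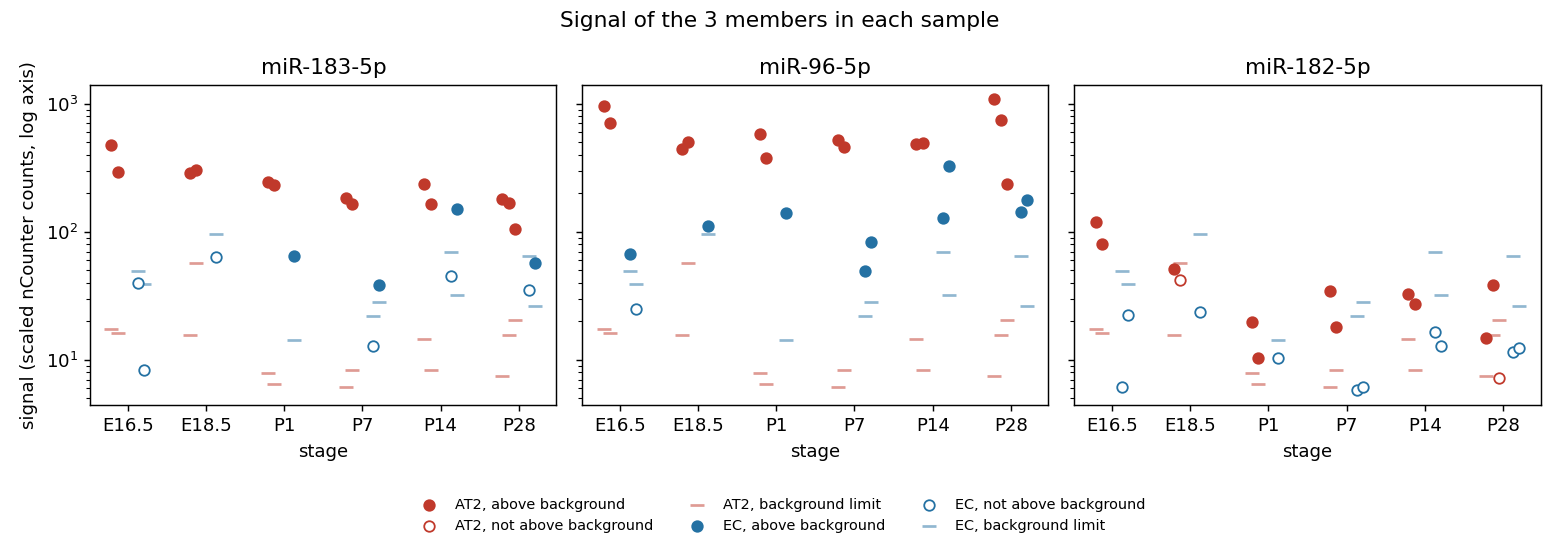
Signal (scaled nCounter counts, log axis) of each member in each of the 23 samples by stage, AT2 left of EC at each stage; filled points were above the background limit of their sample, open points were not, and short bars mark that limit. miR-183-5p and miR-96-5p stand above their limit in all 13 AT2 samples, and all 10 EC points of miR-182-5p are open.

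In AT2 cells the mean signal over all samples was 582 ± 232 for miR-96-5p, 233 ± 93.01 for miR-183-5p and 38.1 ± 31.3 for miR-182-5p (SD, n = 13). In EC the means were 125 ± 84.9 for miR-96-5p, 51.3 ± 39.4 for miR-183-5p and 12.7 ± 6.41 for miR-182-5p (SD, n = 10). As a share of all microRNA counts of a sample, which does not use the deposited factors, miR-96-5p made up 0.336% ± 0.138 in AT2 cells and 0.0442% ± 0.0436 in EC. The share of miR-183-5p was 0.135% ± 0.0596 in AT2 cells and 0.0188% ± 0.0205 in EC. The share of miR-182-5p was 0.0226% ± 0.0182 in AT2 cells and 0.00409% ± 0.00228 in EC. Probes can differ in efficiency, so these levels do not give the members' order in molecules.

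The difference between the cell types passed the test for all 3 members (limma, Benjamini-Hochberg over 302 microRNAs), with an adjusted p of 1.42e-06 for miR-183-5p, 7.88e-07 for miR-96-5p and 0.000739 for miR-182-5p. Of all microRNAs tested, 19.5% were higher in AT2 cells at this threshold of 0.05 and 47.7% were lower, and the median difference was -0.43. Ordered by size among all tested, miR-183-5p had the 8th and miR-96-5p the 10th highest difference. With each sample shifted to the same median, 88 of the 302 microRNAs were called higher and 102 lower, and the members stood at 2.71, 2.70 and 1.62 in the same order. Without the 3 EC samples set apart, they stood at 2.70, 2.64 and 1.41.

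Because many EC values were below background, a bound was also computed with each such value raised to its sample's limit. Between geometric means over the 6 stages, on the deposited scale, miR-183-5p was at least 3.73-fold higher in AT2 cells, against 5.29-fold with all values as deposited. miR-96-5p was at least 4.95-fold higher, against 5.14-fold with all values as deposited. These bounds, and those given by stage below, allow for background and not for the spread between samples. No fold is given for miR-182-5p, whose bound was under 1. Its EC values were all below background, so its level in EC was not measurable at this depth. With a common floor at the highest limit of any sample (95.1) its difference was 0.03 (adjusted p = 0.625, limma). That floor lies above every miR-182-5p signal but the 119 of AT2 E16.5 replicate 1, so the loss of its difference was fixed in advance. With the same common floor, miR-183-5p differed by 1.18 and miR-96-5p by 2.06 log2 units (adjusted p = 1.13e-05 and 2.87e-05, limma). The floor makes every EC value of miR-183-5p equal but that of P14 replicate 2. Its SE was 0.13, against 0.28 in the main fit, so its p-value rests on a spread that the floor reduced.

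Some AT2 and EC samples carry the same ID in their titles, 9 IDs in all. Within these, miR-183-5p was higher in the AT2 sample in 9 of 9, by 2.48 ± 1.39 log2 units (SD). An exact two-sided sign-flip permutation test gave p = 0.00391 (0.00586 adjusted over the 3 members), the smallest that 9 pairs can give. miR-96-5p was also higher in 9 of 9, by 2.48 ± 1.43, with the same exact p. miR-182-5p was higher in 8 of 9, by 1.396 ± 1.34 (exact p = 0.0117), but every EC sample in these pairs was below background, so this sets AT2 cells against values that were not measured.

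Stage by stage, the estimated difference was largest at E16.5, with no test between stages, and passed the test for all 3 members at E16.5 and P7, for 2 at P28, and for none at E18.5, P1 or P14. At E16.5 miR-183-5p was higher in AT2 cells by 4.26 (adjusted p = 0.00013), miR-96-5p by 4.29 (8.45e-05) and miR-182-5p by 2.94 (0.0025, limma), where 16.2% of the microRNAs tested were called higher. As bounds, these were at least 8.52-fold, 16.0-fold and 2.23-fold. At P7 the differences were 2.92, 2.90 and 1.90 in the same order (adjusted p = 0.00352, 0.00254 and 0.0262, limma), with 12.3% of microRNAs called higher. As bounds at P7, miR-183-5p was at least 6.01-fold and miR-96-5p 7.56-fold higher, and for miR-182-5p, whose EC values there were below background, the bound was under 1 and no fold is given. At P28 they were 1.70 for miR-183-5p and 1.84 for miR-96-5p (adjusted p = 0.0362 and 0.0171, limma), with 10.9% called higher, and 0.41 for miR-182-5p (0.617).

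At the other stages the estimates for miR-183-5p and miR-96-5p were also above 0. At E18.5, with 1 EC sample, they were 2.19 and 2.07 (adjusted p = 0.106 for both, limma), and 0.662% of all microRNAs were called higher. At P1, again with 1 EC sample, they were 1.86 and 1.74 (0.155 for both), with 0.331% called higher. At P14 they were 1.25 and 1.25 (0.158 and 0.139), with 2.65% called higher. Without EC P14 replicate 2 the P14 differences were 2.10 for miR-183-5p and 1.92 for miR-96-5p, and both passed the test (adjusted p = 0.0321 and 0.0403, limma), with 8.94% of microRNAs called higher in that fit. Without the other EC P14 sample they were 0.40 and 0.57 (adjusted p = 0.864 and 0.782, limma). For miR-182-5p the differences at E18.5, P1 and P14 were 0.94, 0.45 and 0.98 (adjusted p = 0.458, 0.792 and 0.263).

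With the common floor the calls of miR-182-5p were lost at E16.5 (0.16, adjusted p = 0.115) and P7 (no difference), and those of miR-183-5p at P7 (0.87, 0.0599) and P28 (0.62, 0.17, limma). For miR-182-5p these losses were fixed in advance. The floor lies above all its P7 values and, at E16.5, above all but the 119 of AT2 E16.5 replicate 1. The P28 call of miR-183-5p was also lost with array weights (1.80, 0.0538). At E18.5 miR-183-5p gained a call with quantile normalization (3.03), a pseudocount of 10 (2.05) and the common floor (1.62), and miR-96-5p with array weights (2.07). Other calls gained were those of miR-183-5p at P1 with the common floor (1.31) and of miR-182-5p at P14 with background subtracted (3.71). At E18.5 and P1 the common floor gave miR-183-5p an SE of 0.36, against 0.79 in the main fit, because it made most EC values equal. Single samples decided several of these calls. The P7 call of miR-182-5p was lost when any 1 of the 4 P7 samples was left out, and that of miR-183-5p without EC P7 replicate 1 (2.16). At P28 the call of miR-183-5p was lost without AT2 P28 replicate 1, AT2 P28 replicate 2 or either EC sample, at values between 1.36 and 2.04. The P28 call of miR-96-5p was lost with background subtracted (2.06, adjusted p = 0.0622) and without AT2 P28 replicate 1, AT2 P28 replicate 2 or EC P28 replicate 1, at values between 1.39 and 1.69.

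**Figure D2:**
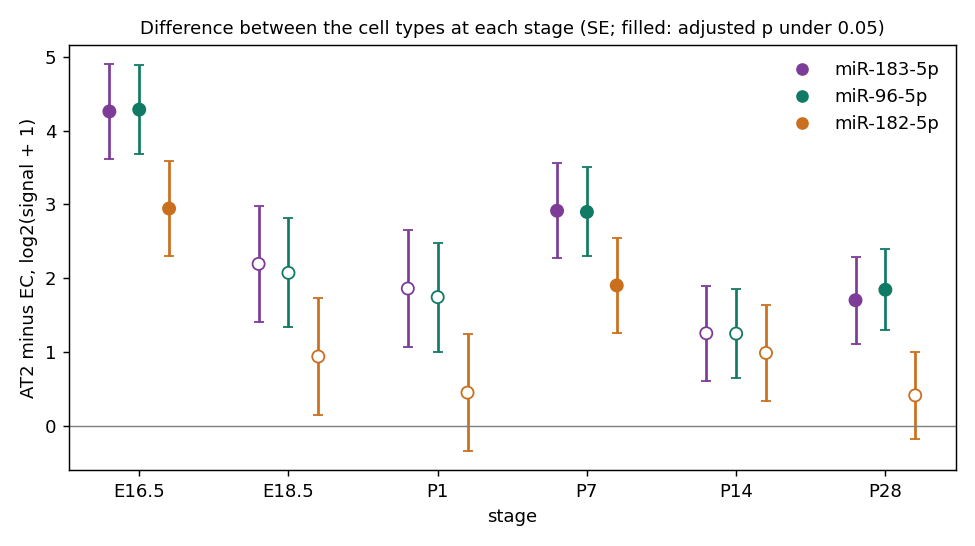
AT2 minus EC difference of each member at each stage on the log2(signal + 1) scale with its standard error, filled where the adjusted p was under 0.05 (limma). All 18 estimates lie above 0, from 0.41 (miR-182-5p at P28) to 4.29 (miR-96-5p at E16.5).

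With age, a fall of miR-182-5p in AT2 cells was called on the deposited scale. No call was made for the other members in either cell type. A call for 1 member alone does not show that the members changed differently. Late samples (P7, P14 and P28) had a miR-182-5p signal of 24.6 ± 11.5 (SD, n = 7), against 73.2 ± 34.9 in early samples (E16.5 and E18.5, n = 4), and the groups did not overlap (7.16 to 38.3 late, 42.1 to 119 early). The late minus early difference was -1.52 ± 0.41 log2 units (SE, adjusted p = 0.00509, limma), where 40.1% of the microRNAs tested were called lower, 11.3% higher, and the median was -0.64. MicroRNAs above background in no sample had a median of -0.75, so low signals in general were lower in late AT2 samples. With samples shifted to the same median the difference was -0.63 (adjusted p = 0.235), 48 of the 302 microRNAs were called lower and 77 higher, and the call was lost. It was also lost with quantile normalization (-0.58) and background subtracted (-1.55). With the common floor the difference was -0.0814, without a call. This was fixed in advance, since the floor lies above every AT2 value of this member but the 119 of E16.5 replicate 1.

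miR-183-5p averaged 172 ± 38.9 in late AT2 samples, against 339 ± 88.9 in early ones (SD, n = 7 and 4). These ranges did not overlap either, at 105 to 238 late and 285 to 472 early. Its difference of -0.94 ± 0.41 did not pass the test (adjusted p = 0.0596, limma) and passed it under 4 alternatives, at -0.91 to -0.94. With the common floor, among these, the estimate was unchanged and its SE fell to 0.18, because most EC values became equal. The difference was -0.0600 (adjusted p = 0.918) with samples shifted to the same median, -0.60 with quantile normalization and -0.35 with edgeR, so its size depended on the scaling. miR-96-5p averaged 572 ± 267 in late and 650 ± 231 in early AT2 samples, with overlapping ranges and a difference of -0.27 ± 0.38 (adjusted p = 0.558). Its sign was not stable: with samples shifted to the same median the difference was 0.61.

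In EC the late minus early differences were 0.91 ± 0.44 for miR-96-5p, 0.33 for miR-183-5p and -0.67 for miR-182-5p (adjusted p = 0.104, 0.585 and 0.263, limma), where 9.27% of all microRNAs were called higher, 27.8% lower, and the median was -0.57. With samples shifted to the same median, 52 of the 302 were called higher and 23 lower, and the members stood at 1.52, 0.93 and -0.07 in the same order. For miR-183-5p quantile normalization gave 1.09 and edgeR 0.99, without a call. miR-96-5p averaged 151 ± 97.0 in late EC samples, against 67.7 ± 43.0 in early ones (SD, n = 6 and 3), and passed the test under 4 alternatives. Its 2 highest values, 327 and 178, came from P14 replicate 2 and P28 replicate 2, and the late mean over the other 4 samples was 101 ± 42.4. Without the 3 EC samples set apart the late minus early difference of miR-96-5p was 0.63. The late miR-183-5p mean was 56.2 ± 48.0 with these samples and 32.8 ± 14.1 without them, against 37.1 ± 27.6 in early EC, and without the 3 EC samples set apart its difference was -0.07.

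The change with age was not shown to differ between the cell types. The AT2 minus EC difference of the late minus early changes was -1.27 for miR-183-5p, -1.18 for miR-96-5p and -0.84 for miR-182-5p (adjusted p = 0.317, 0.322 and 0.58, limma), and 6.29% of all microRNAs were called. An F-test over all 6 stages was past the threshold for miR-182-5p in AT2 cells (adjusted p = 0.0128, limma), as for 49% of the microRNAs, and not without AT2 E16.5 replicate 1 (0.0832). This call was also lost with a median shift (0.078), quantile normalization (0.139) and background subtracted (0.0641). With the common floor the F-test gave 0.384, a loss fixed in advance because nearly all values of this member lie under that floor. For miR-183-5p and miR-96-5p in AT2 cells the F-test gave 0.338 and 0.746. With the common floor, which made most EC values of miR-183-5p equal and so reduced its spread, it gave 0.0161 for that member. In EC it gave 0.0501 for miR-96-5p, 0.0836 for miR-183-5p and 0.422 for miR-182-5p, with 27.2% of the microRNAs called. Over the alternatives that of miR-96-5p ran from 0.00782 to 0.828. It gained a call with a median shift (0.0299), quantile normalization (0.00782), no filter (0.0296), background subtracted (0.0259), array weights (0.0243) and edgeR (0.0243). That of miR-183-5p in EC gained one with no filter (0.0485) and edgeR (0.0483). All of these alternatives include the 3 EC samples set apart. The fit without those samples, with lone EC samples at P14 and P28 and none at P1, gained no call in EC.

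No single step between neighbouring stages passed the test for any member, 0 of 30 steps by limma and 0 by edgeR's quasi-likelihood test, and 4 had an unadjusted p under 0.05 (limma). Over all microRNAs and steps, limma called 1.62% and edgeR 2.75%. Of the 4, the one in AT2 cells was miR-182-5p at P1 minus E18.5, with -1.63 (adjusted p = 0.0956, limma). The other 3 were in EC: miR-183-5p at E18.5 minus E16.5 with 1.73, and at P14 minus P7 miR-183-5p with 1.85 and miR-96-5p with 1.65 (adjusted p = 0.336, 0.223 and 0.247, limma). Both P14 minus P7 differences include EC P14 replicate 2, a set-apart sample. Its signals of miR-183-5p and miR-96-5p were 150 and 327, against 45.3 and 128 in EC P14 replicate 1.

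A ratio of members within a sample does not depend on the sample's factor, and it is compared here only with the same ratio in other samples. The tests of the ratios with age were added after the data were seen. In AT2 cells miR-182-5p over miR-96-5p was 0.126 and 0.113 at E16.5, then 0.116 and 0.0842 at E18.5, 0.0337 and 0.0276 at P1, 0.0661 and 0.0393 at P7, 0.0679 and 0.0553 at P14, and 0.0138, 0.0518 and 0.0302 at P28. All 4 embryonic samples lay above all 9 postnatal ones. The geometric mean was 0.0414 in late and 0.109 in early samples, a difference of -1.39 log2 units. The exact permutation test over 330 splits gave p = 0.00909 (0.0273 adjusted over 3 ratios), and 0.00303 is the smallest it can give. The count of miR-182-5p was not above background in AT2 E18.5 replicate 2 and AT2 P28 replicate 3, and without them the difference was -1.43 (exact permutation test, adjusted p = 0.0591). AT2 P28 replicate 1, with the lowest ratio, stayed in with a miR-182-5p count of 2 against a limit of 1 count. With the mean background subtracted the difference was -1.64 (adjusted p = 0.127, exact permutation test). The call was also lost without any 1 of the 4 early samples and without AT2 P28 replicate 2, at values between -1.32 and -1.51.

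The other ratios moved less. miR-96-5p over miR-183-5p had a geometric mean of 3.12 (2.04 to 6.04) in late and 1.88 (1.55 to 2.40) in early AT2 samples, a difference of 0.73 (exact permutation test, p = 0.0394, adjusted p = 0.0591). miR-182-5p over miR-183-5p had 0.129 in late and 0.204 in early samples, a difference of -0.66 (exact permutation test, p = 0.106). The highest miR-96-5p over miR-183-5p ratios, 6.04 and 4.42, were both from P28, and the third P28 sample had 2.26. The 6.04 came from AT2 P28 replicate 1, the sample with the fewest microRNA counts (26640), where miR-183-5p had 24 counts. The 10 samples of the other stages lay between 1.55 and 2.97.

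**Figure D3:**
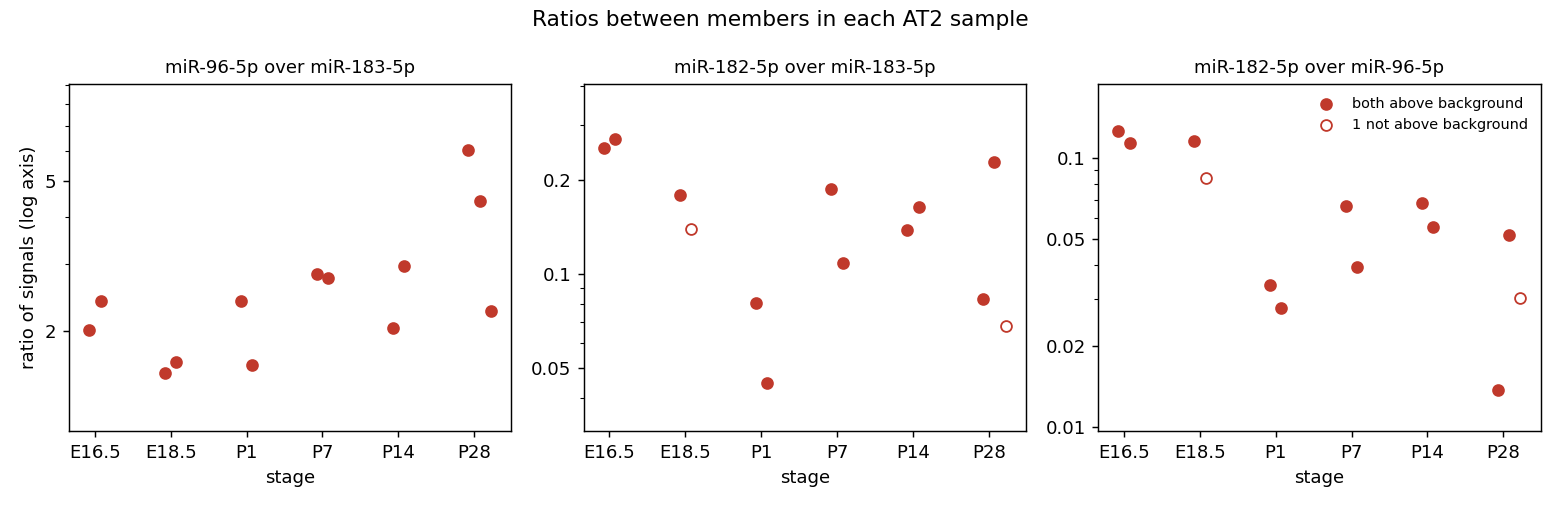
Ratio of the signals of each pair of members in each AT2 sample by stage (log axis), open where 1 of the pair was not above background. miR-182-5p over miR-96-5p lies between 0.0842 and 0.126 in the 4 embryonic samples and between 0.0138 and 0.0679 in the 7 samples of P7 to P28. The 0.0138 rests on a miR-182-5p count of 2 in AT2 P28 replicate 1, whose limit was 1 count.

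Between the cell types only miR-96-5p over miR-183-5p could be compared, since miR-182-5p was above background in no EC sample. Its median was 2.40 in the 13 AT2 samples and 2.18 in the 4 EC samples with both members above background. Within 4 shared IDs the AT2 minus EC difference was -0.02 log2 units (-0.476 to 0.339), with an exact sign-flip permutation p of 1, where 0.125 is the smallest that 4 pairs allow. These 4 EC samples include the 3 set apart.

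Across the 13 AT2 samples, miR-182-5p and miR-183-5p were correlated on the log2(signal + 1) scale, with Pearson's r = 0.78 (permutation p = 0.00214, adjusted p = 0.0128 over 6 values) and Spearman's rho = 0.73 (permutation p = 0.006, adjusted p = 0.018). Without AT2 P28 replicate 3 and AT2 E16.5 replicate 1, the samples farthest from the median of miR-183-5p, r was 0.47. miR-96-5p and miR-183-5p had r = 0.49 and rho = 0.33 (permutation p = 0.0884 and 0.271, adjusted p = 0.133 and 0.271), and r was -0.22 without the same 2 samples. miR-182-5p and miR-96-5p had r = 0.56 and rho = 0.45 (permutation p = 0.044 and 0.132, adjusted p = 0.0881 and 0.158), and r was 0.76 without AT2 P28 replicates 1 and 3. Values of 1 sample share its factor and its depth, and the stages are pooled in these figures. In EC both members of a pair were above background in 4, 0 and 0 samples, so no correlation was computed.

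Over the 12 group means, the members' average was followed most closely by MIMAT0001537 (Pearson's r = 0.955) and MIMAT0000657 (r = 0.941) among the 302 microRNAs tested, as a description with no test. MIMAT0001537 had a geometric mean signal of 3425 in AT2 cells and 423 in EC, and MIMAT0000657 had 2773 in AT2 cells and 485 in EC. Among the members, r over these means was 0.96 for miR-96-5p and miR-183-5p, 0.79 for miR-182-5p and miR-183-5p, and 0.70 for miR-182-5p and miR-96-5p. The group means of both cell types enter these values, so the difference between the cell types is part of them.

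The EC values of miR-183-5p and miR-96-5p were placed on a scale from the mean of the other 7 EC samples (0%) to the AT2 mean (100%), beside 14 other microRNAs whose AT2 level was 4-fold or more that of those 7. In EC P14 replicate 2 miR-183-5p lay at 58.0% and miR-96-5p at 48.5%, and the median of the 14 lay at 42.4%. In EC P28 replicate 2 the members lay at 11.0% and 18.4% and the median at 23.8%, and in EC P1 replicate 1 at 15.1% and 10.6% with a median of 18.3%. In EC E18.5 replicate 1, one of the 7, they lay at 14.5% and 4.91% with a median of 9.88%. In EC P28 replicate 1, also one of the 7, miR-183-5p lay at 0.0454% and miR-96-5p at 11.3% with a median of 3.75%. The 14 were chosen by their low level in the 7 samples and by being above background in most AT2 samples, so the positions are a description. The part of other cells in these samples was not tested.

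**Figure D4:**
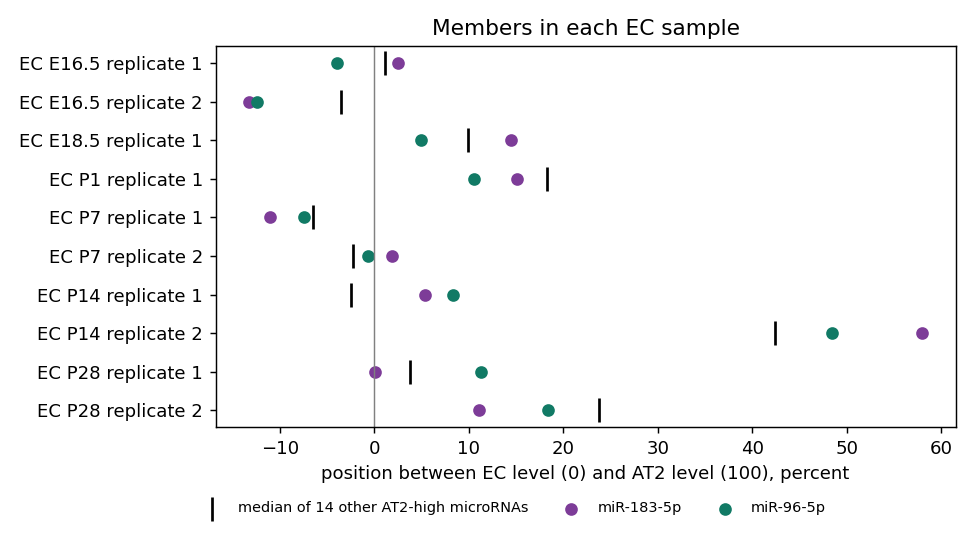
Position of each EC sample between the mean of 7 EC samples (0%) and the AT2 mean (100%), for miR-183-5p, miR-96-5p and the median of 14 other microRNAs higher in AT2 cells. EC P14 replicate 2 stands apart at 58.0%, 48.5% and 42.4%.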

How the data were processed

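Total RNA was prepared with the nCounter mouse miRNA kit, per the labels' protocols, and the submitters' processing notes name build mm10. The table deposited by the authors holds a signal, counts times 1 factor per sample as the values show; how the factors were set is not given in the sources used here. Of 13861 recovered values 100% were whole within 0.1, and in 9 columns low values had been set to 1. The 626 rows were 602 microRNAs, 14 ERCC controls (8 low, 6 graded), 6 ligation controls and 4 messenger RNAs.

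log2(signal + 1) was fitted with limma 3.58.1 (lmFit, eBayes with trend, R 4.3.3), 1 mean per group over 23 samples, and Benjamini-Hochberg adjustment over 302 microRNAs at 0.05. A lone EC sample is assumed to vary like the other groups. This scale can understate changes of low microRNAs and can also shift them. Those above background in no sample had medians of -1.08 (AT2 minus EC), -0.75 (late minus early in AT2) and -1.12 (late minus early in EC). edgeR 4.0.16 on recovered counts, other scalings, filters, floors and left-out samples were alternatives; edgeR called 191 microRNAs between cell types. Correlations used 100000 permutations. The limma step was also run on simulated counts, with 1 spread setting for all microRNAs and no separate background. That setting differs from these data, so the run does not speak for signals near background.

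Members and lists were chosen with earlier results of these data known, including the 3 EC samples set aside. Named microRNAs are the members and, by rule, the most like in pattern (2 of 5 shown, since identifiers are unnamed). Lists of marker microRNAs, the miR-200 family and the other hairpin arms are known by name only and could not be matched, so 0 were tested.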

Additional observations from a re-analysis of the deposited data

Results flagged for a closer look

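Of 18 groups of samples looked at, some of which overlap, 4 held a value far from the rest. These were 3 distinct values. A value counted as far when its gap to the next, over the range of the group, passed a critical value (Dixon's test). The nominal chance rate of 1 group in 20 holds for separate groups with a normal spread. Signals were used without logs and stages were pooled, so the 4 groups cannot be set against that rate. miR-183-5p in EC P14 replicate 2 (149.66) lay far above the other EC samples, both among all 10 and among the 6 late ones. miR-96-5p in the same sample (326.68) lay far above the other 9 EC samples. miR-183-5p in AT2 E16.5 replicate 1 (471.56) lay far above the other 3 early AT2 samples (285 to 302).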

How the results depend on the processing

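Over 15 main results of the members, 441 of 477 alternative values kept their direction and their side of the threshold. These include fits with 1 sample left out, and leaving out an EC sample cannot move an AT2 estimate. The count is therefore no measure of stability. With those fits left aside, 9 of 13 alternatives kept the late minus early result of miR-182-5p in AT2 cells. The number was also 9 of 13 for miR-183-5p in AT2 cells and for miR-96-5p in EC. The replicate block (title ID as a random block) changed no call among the main results. With it, AT2 minus EC was 2.35 for miR-183-5p, 2.34 for miR-96-5p and 1.28 for miR-182-5p, with a correlation within IDs of 0.231. Leaving out 1 sample at a time, AT2 minus EC ranged from 2.19 to 2.54 for miR-183-5p, 2.23 to 2.47 for miR-96-5p and 1.13 to 1.44 for miR-182-5p, all past the threshold. With the common floor, which makes low signals equal, miR-182-5p differed by 0.0271, no longer a call. This was fixed in advance, since the floor lies above every value of this member but that of AT2 E16.5 replicate 1. The cause of the other changes was not tested. In late minus early AT2 samples, miR-182-5p lost its call with a median shift (-0.63), quantile normalization (-0.58), background subtracted (-1.55) and the common floor (-0.0814), the last fixed in advance in the same way. miR-183-5p gained one with pseudocount 10 (-0.91), the common floor (-0.94), array weights (-0.91) and without the 3 EC samples (-0.94), stayed without one at -0.0600 with a median shift, -0.35 with edgeR and -0.60 with quantile normalization, and ranged from -1.11 to -0.78 with 1 sample left out. miR-96-5p turned to 0.61 with a median shift and 0.41 with edgeR. In late minus early EC samples, miR-96-5p gained a call with a median shift (1.52), quantile normalization (1.63), background subtracted (1.85) and edgeR (1.53), and ranged from 0.56 to 1.62 with 1 sample left out. miR-182-5p turned to 0.17 with quantile normalization and 0.0318 with background subtracted. miR-183-5p turned to -0.0705 without the 3 EC samples, and ranged from -0.20 (without EC E16.5 replicate 2) to 1.19. Its difference between the cell types in the change with age was called with the common floor (-1.05), where the floor had reduced the spread of its EC values. At P28, miR-182-5p ranged from -0.19 (without AT2 P28 replicate 2) to 0.95 in AT2 minus EC. The ratio of miR-182-5p over miR-96-5p lost its call with background subtracted (-1.64) and on samples with both above background (-1.43), and ranged from -1.51 to -1.12 with 1 sample left out, and that of miR-96-5p over miR-183-5p from 0.57 to 0.85. The 203 microRNAs called between the cell types became 110 with the common floor and 467 with no filter. The 155 called with age in AT2 cells became 86 with the common floor, and those in EC (28 higher and 84 lower) became 72 with the common floor or edgeR, 58 with equal sums and 192 with no filter. Depth limits miR-182-5p most, with 2 to 168 counts in AT2 samples and 2 to 26 in EC.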
